A study of Mus musculus with 9 samples.

Results

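The genes described here are 10 enzymes that break down tryptophan along the kynurenine route and make or clear the NAD precursor: Tdo2, Ido2, Afmid, Kmo, Kynu, Haao, Acmsd, Qprt, Aadat and Nnmt. They were listed by name, with earlier results of these data known, and each matched 1 row of the 56748 genes in the deposited table. Liver RNA of 9 C57BL/6J mice was sequenced, with 3 mice each in the groups Control, DSS and Indirubin. The DSS mice drank 1.8% dextran sulfate sodium (DSS), an agent that injures the colon, for 1 week followed by 1 week of recovery, in 3 cycles, and received 200 μL of sterile water by mouth daily. The Indirubin mice had the same DSS cycles and received 1 g/kg of indirubin, a poorly soluble component of indigo naturalis and an agonist of the aryl hydrocarbon receptor (AhR), in 200 μL of sterile water daily. The Control mice also received 200 μL of sterile water and are labelled with water alone, but the series text describes colitis for all mice before it lists the groups, so the colitis state of the Control mice is not certain. Indirubin was given only on top of DSS, so that indirubin without colitis was not compared. The wild-type mice of the study were 7 to 8 weeks old as obtained. Their sex is not given in the sources used here, and no source says whether mice of a group shared a cage. Each p-value of the main fits rests on the spread within groups among the 6 libraries of its comparison.

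Most dietary tryptophan that is not built into protein is degraded in hepatocytes. Tryptophan dioxygenase opens its indole ring, and kynurenine and several of its products are ligands of AhR. Later steps lead through 3-hydroxyanthranilate either to quinolinate and NAD or, past the decarboxylase Acmsd, to complete oxidation.

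Library totals lay between 6514863 and 7944684 counts, with 569044 to 2132208 nuclear counts. The mitochondrial share was 71.6% in Indirubin-2, 77.2% in Indirubin-3 and 72.4% in DSS-3, and 85.8% to 91.3% in the other 6 libraries. Values are given as normalized CPM, for which the library sizes were adjusted by edgeR's TMM factors over all 9 libraries, and groups as mean ± SD (n = 3 mice). The hepatocyte markers were present in every library, with none of the 10 at 0. Their summed level was 11700.6 to 19661.8 CPM in Control, 10184.1 to 20290.9 in DSS and 8660 to 11095 in Indirubin mice. Indirubin-2 and Indirubin-3 stood apart. The 13 pancreatic acinar markers summed to 8.28 to 20.7 CPM in Control and 0 to 3.08 in DSS mice, while the range with indirubin was 10.5 to 1141, with the low end in Indirubin-1. The 10 neutrophil markers summed to 1.17 to 3.65, 11.5 to 17.4 and 27.9 to 246 CPM in the same order of groups. The 12 macrophage markers summed to 132 to 221, 172 to 199 and 217 to 304 CPM. The 8 endothelial markers summed to 44.3 to 82.8, 25.7 to 48.3 and 60.7 to 76.0 CPM. In the acinar, neutrophil, macrophage and endothelial sums, as for Tdo2 below, the Indirubin mice lay above the DSS mice without overlap. The 5 erythroid markers summed to 110 to 267 CPM in the 7 other libraries and to 667 and 645 in Indirubin-2 and Indirubin-3. The part of these differences in the results below was not tested. Values with Indirubin-1 alone leave out both libraries. That fit takes its spread from the other group only and assumes that the lone library varies like it, so its log2 fold changes are given without a p.

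The upstream sequences of Tdo2, Kmo and Haao are shown because these were the enzymes whose Indirubin and DSS values did not overlap. RefSeq promoters on build GRCm38.p6 were matched by symbol for 7 of the 10 genes (Ido2, Kynu and Nnmt had no entry). The 250 bases before the start lie at chr3:81975729-81975978 (minus strand) for Tdo2, at chr1:175631943-175632192 (plus strand) for Kmo and at chr17:83846791-83847040 (minus strand) for Haao. Capitals mark matches on either strand to 3 motifs. GCGTG is the core of the AhR response element. AGAACA belongs to the element bound by the glucocorticoid receptor. GTTAAT belongs to the site of the hepatocyte factor HNF1.
Tdo2: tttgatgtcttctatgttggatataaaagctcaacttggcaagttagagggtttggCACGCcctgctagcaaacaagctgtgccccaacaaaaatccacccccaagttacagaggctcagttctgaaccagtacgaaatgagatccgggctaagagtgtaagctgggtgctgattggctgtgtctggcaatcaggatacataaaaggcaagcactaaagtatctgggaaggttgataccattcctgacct
Kmo: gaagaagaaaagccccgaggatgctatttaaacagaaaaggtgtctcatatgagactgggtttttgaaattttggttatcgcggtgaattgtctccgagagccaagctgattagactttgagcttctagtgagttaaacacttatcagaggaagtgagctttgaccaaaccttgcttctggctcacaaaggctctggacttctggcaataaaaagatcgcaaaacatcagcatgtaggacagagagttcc
Haao: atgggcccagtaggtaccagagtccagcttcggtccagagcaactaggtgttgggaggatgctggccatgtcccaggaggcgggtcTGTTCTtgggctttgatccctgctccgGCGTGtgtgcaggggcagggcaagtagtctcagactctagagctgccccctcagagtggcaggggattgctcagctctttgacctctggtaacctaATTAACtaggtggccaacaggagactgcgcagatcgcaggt
Tdo2 held 1 match, to the AhR core on the reverse strand. Haao held 1 match to each of the 3 motifs, and Kmo held none. Of the 7 member promoters, 2 held the AhR core, against 28.2% of the 32851 promoters in the table. The glucocorticoid motif was in 1 member promoter and in 16.1% of all promoters, and the HNF1 motif in 1 and in 6.43%. The matched cores did not overlap each other, and a match is a description of these letters only.

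Between Indirubin and DSS mice, the entry enzyme Tdo2 lay in the opposite direction to Kmo and Haao further down the route. Tdo2 was higher with indirubin, at 90.1 ± 33.7 against 30.0 ± 7.001 normalized CPM. Haao, at 23.8 ± 10.1 against 48.8 ± 12.2, and Kmo, at 13.2 ± 0.449 against 18.2 ± 4.29, were lower. In these 3 genes no Indirubin mouse overlapped a DSS mouse, and the other 7 overlapped. Scaled by total library size alone, Tdo2 and Kmo overlapped too and Haao did not. That is 1 of 10 genes higher and 2 of 10 lower without overlap, where the shares over all 9117 genes tested were 10.5% and 5.92%. At an unadjusted p under 0.05, Tdo2 was higher and Haao lower, beside 4.45% (406 genes) and 3.22% (294 genes) of all tested. None of the members and none of all genes (0%) had an adjusted p under 0.05 in the edgeR quasi-likelihood fit, Benjamini-Hochberg adjusted. The DESeq2 Wald test called 80 genes, among them Tdo2. The median log2 fold change of the 10 members was -0.45, beside 0.15 over all genes tested. In whole liver, fewer cells of a type and less RNA per cell cannot be told apart.

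**Figure D1:**
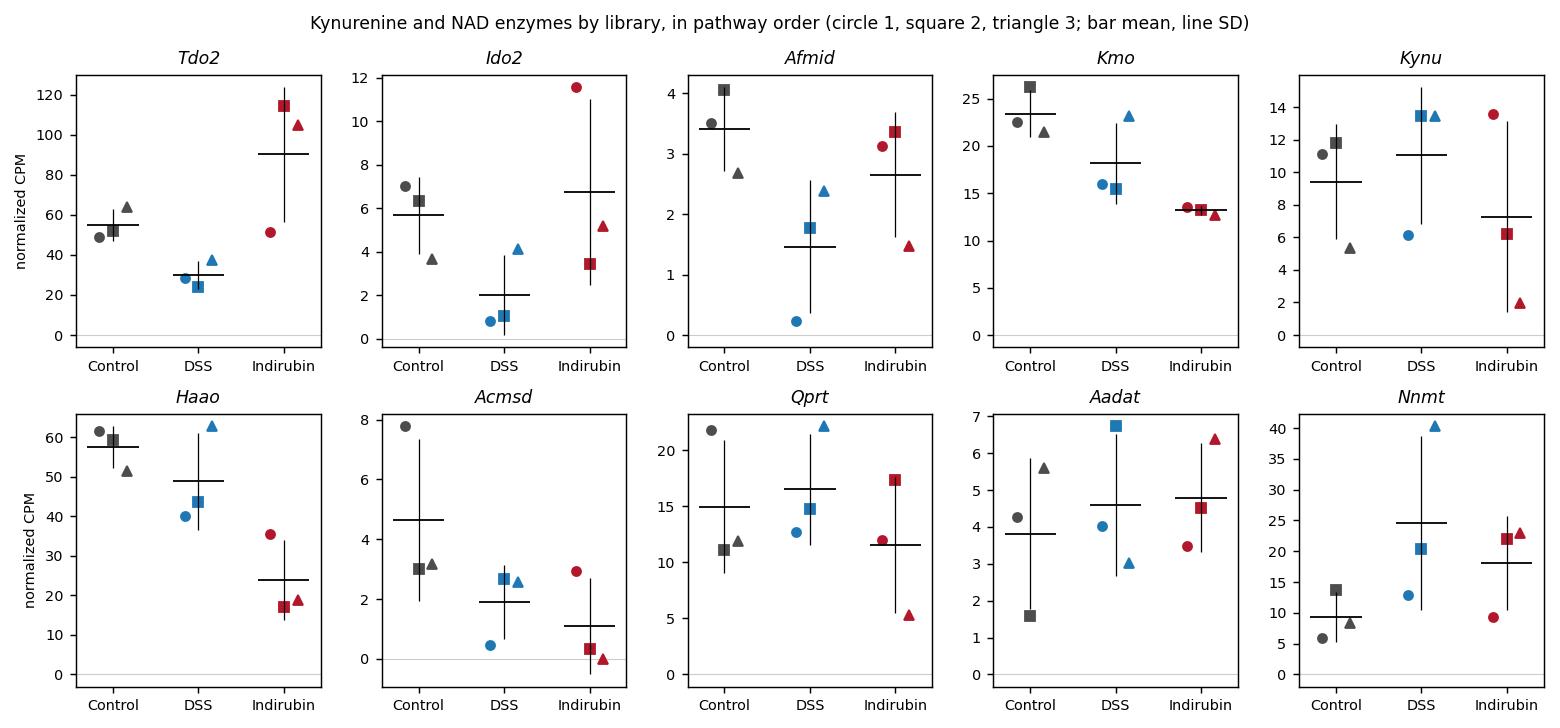
Normalized CPM (vertical axis, linear) of the 10 enzymes in the 9 libraries by group, with the horizontal bar at the group mean and the vertical line 1 SD to each side. All 3 Indirubin mice lie above the DSS mice for Tdo2 (51.6 to 114 against 23.9 to 37.7) and below them for Haao and Kmo.

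Tdo2 (ENSMUSG00000028011, chromosome 3, 81864397 to 81883509, minus strand, GRCm39) encodes tryptophan dioxygenase, the rate-limiting hepatic entry to the route. It stood at 49.0, 52.1 and 64.1 normalized CPM in the Control mice. The DSS mice had 28.4, 23.9 and 37.7, and the Indirubin mice 51.6, 114 and 105. Every DSS mouse was below every Control and every Indirubin mouse. Indirubin-1 lay within the Control range, and Indirubin-2 and Indirubin-3 lay above it. The log2 fold change of Indirubin against DSS was 1.59 (standard error 0.43, adjusted p = 0.433 from edgeR). Without Indirubin-1 it was 1.76 (adjusted p = 0.0285, edgeR), and with Indirubin-1 as the only Indirubin library it was 0.78. The adjusted p ranged from 0.0285 to 0.918 over the 14 other alternatives, and the log2 fold change was positive in all. For DSS against Control the log2 fold change was -0.85 (standard error 0.31, adjusted p = 0.443), and for Indirubin against Control it was 0.74 (standard error 0.40, adjusted p = 0.448, both from edgeR). The latter turned to -0.11 with Indirubin-1 alone. Scaled by total library size alone, Indirubin-1 had 42.1 CPM and DSS-3 had 53.3, so that the groups overlapped.

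Ido2 (ENSMUSG00000031549, chromosome 8, 25021908 to 25066349, minus strand), a paralog of the immune-inducible dioxygenase Ido1, was read from few counts. It had 36, 36 and 15 counts in Control, 7, 6 and 45 in DSS and 63, 42 and 60 in Indirubin mice. In normalized CPM these were 7.004, 6.34 and 3.65, then 0.830, 1.06 and 4.11, then 11.6, 3.44 and 5.18. DSS-1 and DSS-2 were the lowest of the 9 libraries, and DSS-3 lay above Indirubin-2, so that the groups overlapped. Indirubin against DSS gave a log2 fold change of 1.70 (standard error 0.79, adjusted p = 0.654 from edgeR). It was 2.80 without DSS-3, 0.98 without Indirubin-1 and 2.49 with Indirubin-1 alone. Ido1 had 0 counts in all 9 libraries, which allows up to 3 counts in each.

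Afmid (ENSMUSG00000017718, chromosome 11, 117716750 to 117730734, plus strand), the formamidase that releases kynurenine, had 18, 23 and 11 counts in Control mice. It had 2, 10 and 26 in DSS and 17, 41 and 17 in Indirubin mice. At 3.50, 4.05 and 2.68 normalized CPM the Control mice lay above all DSS mice (0.237, 1.77 and 2.38), while the Indirubin mice (3.12, 3.36 and 1.47) overlapped both groups. Indirubin against DSS gave a log2 fold change of 0.85 (standard error 1.07, adjusted p = 0.970 from edgeR), and 1.08 with Indirubin-1 alone. With 1 library left out it ranged from 0.24 to 1.41. The Afmid row overlaps Tk1 on the opposite strand, and since the counting is not stated to use strand, reads of the 2 genes cannot be told apart in their shared part.

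Kmo (ENSMUSG00000039783, chromosome 1, 175447947 to 175489682, plus strand), which hydroxylates kynurenine at the mitochondrial outer membrane, was the member with the least spread among Indirubin mice. Scaled by total library size they had 11.1, 24.1 and 18.9 CPM, so the small spread depended on the scaling. In normalized CPM they had 13.6, 13.3 and 12.7. The DSS mice had 16.002, 15.4 and 23.1 and the Control mice 22.6, 26.2 and 21.4. The Indirubin mice were below every mouse of both other groups, whereas DSS-3 lay within the Control range. Kmo gave log2 fold changes of -0.46 against DSS (standard error 0.38, adjusted p = 0.907) and -0.80 against Control (standard error 0.34, adjusted p = 0.313, both from edgeR). With Indirubin-1 alone these were -0.42 and -0.80. Without DSS-3 the first was -0.26. With total library size alone the first was -0.22 and the second turned to 0.17. Kmo overlaps Fh1, a gene of the citric acid cycle, on the opposite strand, with the same limit as for Afmid.

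Kynu (ENSMUSG00000026866, chromosome 2, 43445341 to 43572734, plus strand) encodes the kynureninase that makes 3-hydroxyanthranilate. The Control mice had 11.1, 11.8 and 5.36 normalized CPM, the DSS mice 6.16, 13.5 and 13.4 and the Indirubin mice 13.6, 6.23 and 1.99. Indirubin-1 was the highest of all libraries and Indirubin-3 the lowest. All groups overlapped. For Indirubin against DSS the log2 fold change was -0.62 (standard error 0.63, adjusted p = 0.943 from edgeR). It was -1.53 without Indirubin-1 (adjusted p = 0.408, edgeR) and 0.31 with Indirubin-1 alone.

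Haao (ENSMUSG00000000673, chromosome 17, 84138585 to 84155392, minus strand), the dioxygenase that opens the ring of 3-hydroxyanthranilate, had 35.4, 17.1 and 18.7 normalized CPM in the Indirubin mice. The DSS mice had 40.1, 43.6 and 62.7 and the Control mice 61.5, 59.4 and 51.4. The Indirubin mice were below all others, and Indirubin-1 was nearest to the DSS mice. DSS and Control overlapped through DSS-3. Haao gave log2 fold changes of -1.04 against DSS (standard error 0.42, adjusted p = 0.589) and -1.26 against Control (standard error 0.38, adjusted p = 0.170, both from edgeR). Without Indirubin-1 these were -1.55 (adjusted p = 0.0915) and -1.79 (adjusted p = 0.00521), and with Indirubin-1 alone they were -0.46 and -0.71 (p from edgeR). Under total library size alone both stayed negative, at -0.94 and -0.42. The adjusted p against Control ranged from 0.00521 to 0.572 over its 14 other alternatives, and that against DSS from 0.0915 to 1.00.

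Acmsd (ENSMUSG00000026348, chromosome 1, 127657150 to 127695715, plus strand) and Qprt (ENSMUSG00000030674, chromosome 7, 126706286 to 126721398, minus strand) stand at the fork after Haao, where Acmsd leads to oxidation and Qprt commits quinolinate to NAD. Acmsd had 40, 17 and 13 counts in Control, 4, 15 and 28 in DSS and 16, 4 and 0 in Indirubin mice. In normalized CPM the Control mice had 7.78, 2.99 and 3.17, the DSS mice 0.474, 2.66 and 2.56 and the Indirubin mice 2.94, 0.328 and 0. All 6 DSS and Indirubin mice lay below all Control mice, by narrow gaps that were not there in the authors' FPKM, where Indirubin-1 (1.01) and DSS-2 (0.938) lay above Control-2 (0.935). The log2 fold change against Control was -1.27 in DSS (standard error 0.86, adjusted p = 0.898) and -2.21 in Indirubin mice (standard error 1.20, adjusted p = 0.452, both from edgeR). Single libraries moved these values: the first was -0.69 without Control-1 and -0.81 without DSS-1, and the second -4.79 without Indirubin-1 (adjusted p = 0.0639, edgeR) and -0.68 with Indirubin-1 alone. For Acmsd the log2 fold change of Indirubin against DSS was -0.85 (standard error 1.56, adjusted p = 0.979 from edgeR). It ranged from -3.53 to -0.24 with 1 library left out and was 0.63 with Indirubin-1 alone. A long noncoding RNA (ENSMUSG00000121232) overlaps Acmsd on the other strand. Qprt had 21.8, 11.1 and 11.9 normalized CPM in Control, 12.7, 14.7 and 22.1 in DSS and 11.9, 17.4 and 5.27 in Indirubin mice. All groups overlapped, and the log2 fold change of Indirubin against DSS was -0.52 (standard error 0.49, adjusted p = 0.932 from edgeR), and -0.47 with Indirubin-1 alone. With 1 library left out it ranged from -0.96 to -0.17.

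Aadat (ENSMUSG00000057228, chromosome 8, 60958966 to 60998711, plus strand), an aminotransferase that turns kynurenine into kynurenic acid, had 4.28, 1.59 and 5.602 normalized CPM in Control mice. It had 4.03, 6.73 and 3.02 in DSS and 3.49, 4.51 and 6.39 in Indirubin mice, with all groups overlapping. Against DSS, the log2 fold change with indirubin was 0.08 (standard error 0.60, adjusted p = 0.990 from edgeR). Its counts were 9 to 74 per library.

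Nnmt (ENSMUSG00000032271, chromosome 9, 48503177 to 48516453, minus strand) methylates nicotinamide with S-adenosylmethionine and so removes it from NAD salvage. It had 5.84, 13.7 and 8.28 normalized CPM in Control, 12.9, 20.4 and 40.3 in DSS and 9.36, 22.04 and 23.0 in Indirubin mice. DSS-1 lay just below Control-2, so that the groups overlapped, and DSS-3 was the highest library. The log2 fold change of DSS against Control was 1.42 (standard error 0.46, adjusted p = 0.341), and without DSS-3 it was 0.91 (both from edgeR). For Indirubin against Control it was 1.00 (standard error 0.47, adjusted p = 0.366 from edgeR), and with Indirubin-1 alone it was 0.00. Nnmt is also expressed in fat, and the 7 adipocyte markers summed to 6.52 to 9.74 CPM in Control, 3.01 to 15.2 in DSS and 14.5 to 53.4 in Indirubin mice. Between 2 and 6 of these markers were at 0 in each library, and their part in the Nnmt values was not tested.

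For DSS against Control, Tdo2, Afmid and Acmsd were lower without overlap, 3 of 10 members where the share was 8.54% of the 7482 genes tested, and no member was higher without overlap (7.1% of all). At an unadjusted p under 0.05, Nnmt was higher and Tdo2 lower, beside 3.48% and 4.05% of all genes. None of the members had an adjusted p under 0.05, beside 0.708% of all genes. For Indirubin against Control, Kmo, Haao and Acmsd were lower without overlap, 3 of 10 beside 9.32% of the 8059 genes tested, and none was higher (12.2%). Acmsd had 16, 4 and 0 counts with indirubin and passed the filter only through the Control libraries. That favoured its direction, so it adds nothing to this count. Kmo and Haao were lower at an unadjusted p under 0.05, beside 6.38% of all genes, and no member was higher (7.45%). No member had an adjusted p under 0.05 (0.236% of all genes). Scaled by total library size alone, the lower values of Tdo2, Afmid and Acmsd in DSS mice and of Kmo and Acmsd in Indirubin mice overlapped those of Control, and Haao in Indirubin mice stayed below. The 3 comparisons share their libraries in pairs, so they are not independent of each other. With scaling by total library size instead of TMM, the median log2 fold change over all genes moved from 0.15 to 0.43 for Indirubin against DSS, from 0.01 to 0.70 for DSS against Control and from 0.13 to 1.11 for Indirubin against Control. Relative to those medians Tdo2 kept its side in each comparison. Its log2 fold changes were 1.96, -0.10 and 1.86 in that order.

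**Figure D2:**
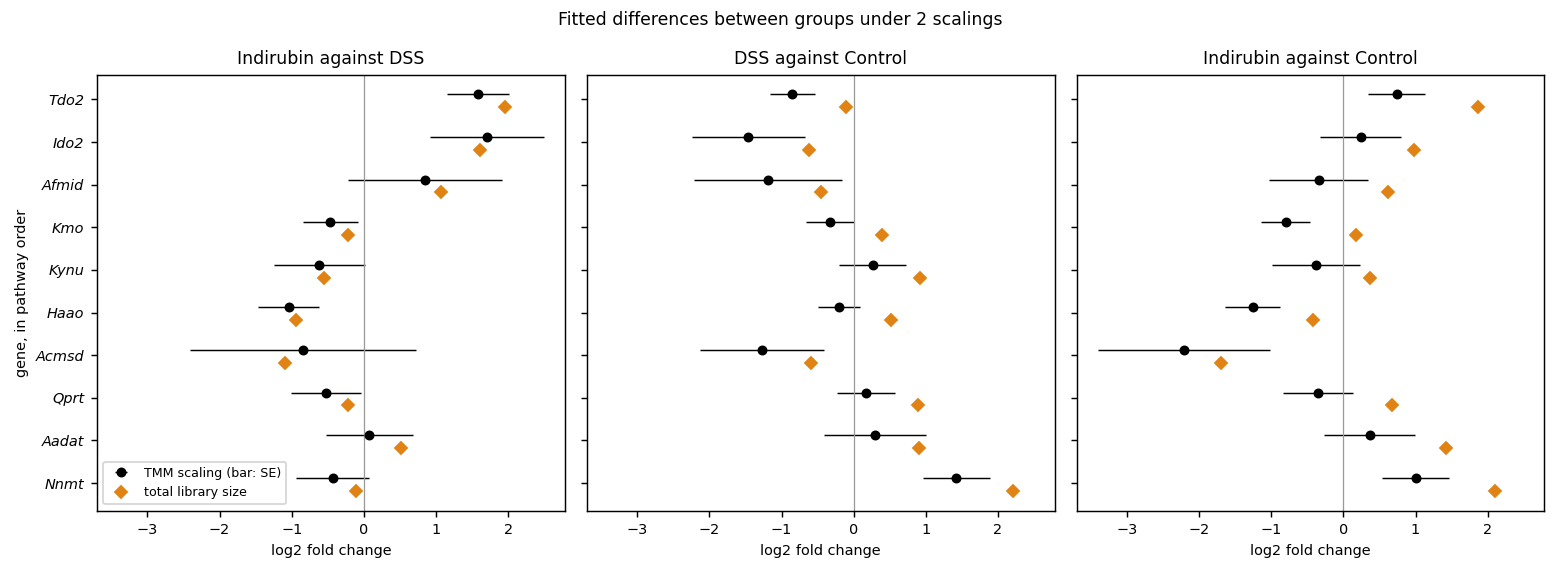
Log2 fold change (horizontal axis) of each enzyme in pathway order for the 3 comparisons, from edgeR with TMM (black, bar 1 standard error) and with total library size alone (orange). The orange points lie to the right in both comparisons with Control, where the median of all genes moved to 0.70 and 1.11. Tdo2 is positive and Haao negative under both scalings for Indirubin against DSS.

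The ratio of 2 enzymes within a library does not depend on how libraries are scaled to each other, and 5 such ratios were taken as log2 of the counts with 0.5 added. Tdo2 to Nnmt, the entry to the route against the exit of nicotinamide, was 1.92 to 3.05 in Control and 2.19 to 2.45 in Indirubin mice. In the DSS mice it was 1.14, 0.23 and -0.10, below all 6 others. The group means were 2.63 ± 0.62, 0.42 ± 0.64 and 2.34 ± 0.14 for Control, DSS and Indirubin. Tdo2 to Haao, a pair chosen after its values were seen, separated all 3 groups, at -0.33 to 0.32 in Control, -0.86 to -0.49 in DSS and 0.54, 2.73 and 2.48 in Indirubin mice. Indirubin-1 was the nearest of its group to the Control mice. Acmsd to Qprt was -1.87 to -1.47 in Control and lower in all other mice, at -4.58 to -2.43 in DSS and -6.94 to -1.99 in Indirubin mice. Indirubin-1 lay close to the Control range there too, and Indirubin-3 had no Acmsd count. Kmo to Aadat (1.91 to 3.98, 1.18 to 2.92 and 0.99 to 1.93) and Kynu to Kmo (-1.98 to -1.02, -1.37 to -0.19 and -2.65 to 0) overlapped between DSS and both other groups. No test was made on these ratios.

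**Figure D3:**
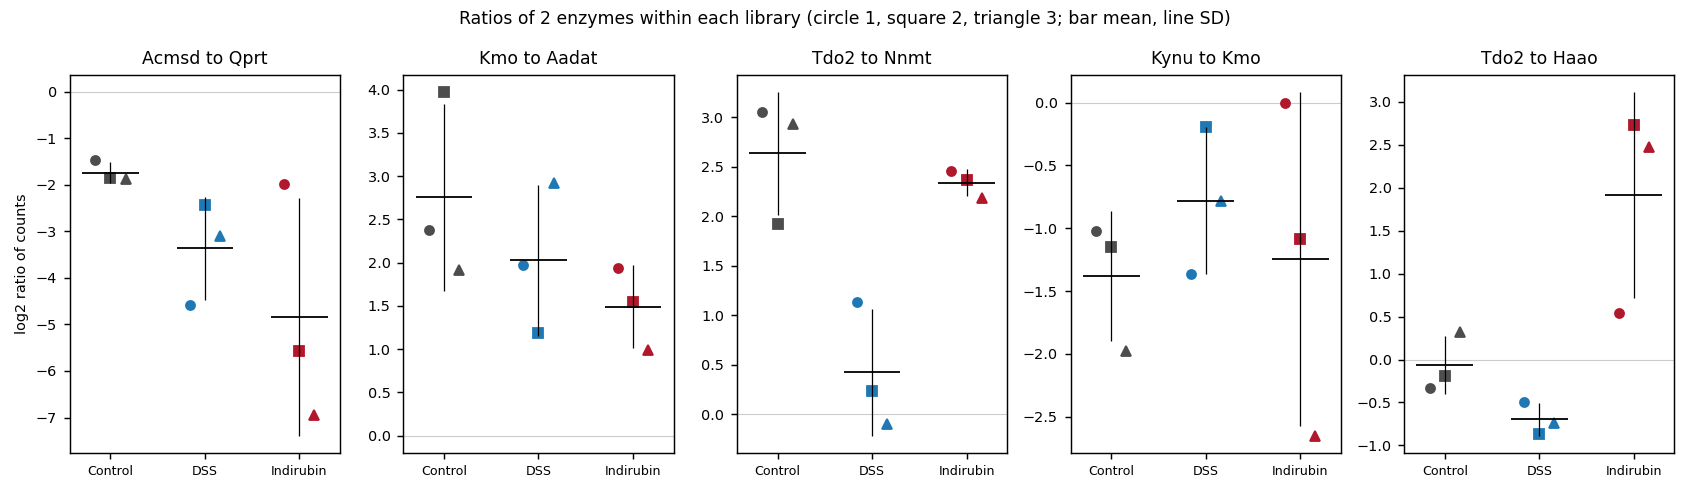
Log2 ratio of counts of 2 enzymes (vertical axis, each panel with its own range) in the 9 libraries by group, with the bar at the mean and the line 1 SD to each side. For Tdo2 to Nnmt the DSS mice (-0.10 to 1.14) lie below the Control and Indirubin mice. For Tdo2 to Haao the 3 groups do not overlap.

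Levels of different genes were compared per length, from the FPKM values of the authors. In Control mice Tdo2 (13.3 ± 2.47 FPKM) and Haao (11.4 ± 0.840) were the most abundant and overlapped. Nnmt (5.45), Qprt (5.30) and Kmo (4.62) followed, with Nnmt not overlapping Haao, and Aadat, Acmsd, Ido2, Kynu and Afmid lay between 0.895 and 1.67 and did not overlap Kmo. In DSS mice the order was led by Nnmt (14.5 ± 7.56), Haao (9.76 ± 1.92) and Tdo2 (7.23 ± 1.25), whose neighbours in the order overlapped. With indirubin Tdo2 was at the top (21.9 ± 7.79), with Nnmt (10.8 ± 4.39) and Haao (4.85 ± 2.20) after it, and every neighbour in the order overlapped. Acmsd, at 0.373 ± 0.556, was last in that group.

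The other genes of tryptophan, kynurenine, NAD and methyl donor metabolism were taken from 5 lists of 48 genes. For Indirubin against DSS, 33 of them passed the filter on low counts, with a median log2 fold change of -0.15, and 3 were higher and 0 lower without overlap, beside 10.5% and 5.92% of all genes. For DSS against Control 31 passed, 0 were higher and 5 lower without overlap (7.1% and 8.54% of all genes), with a median of -0.11. For Indirubin against Control 35 passed, 1 was higher and 7 lower (12.2% and 9.32% of all genes), with a median of -0.28. None had an adjusted p under 0.05 in any comparison in edgeR. At an unadjusted p under 0.05 there were 4 higher and 2 lower for Indirubin against DSS (4.45% and 3.22% of all genes). There were 0 and 2 for DSS against Control (3.48% and 4.05%) and 2 and 2 for Indirubin against Control (7.45% and 6.38%).

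Of the uptake and alternative routes, Slc7a8, an amino acid transporter, passed the filter with low counts, at 10, 15 and 9 in Control, 16, 0 and 13 in DSS and 10, 11 and 12 in Indirubin mice. In normalized CPM these were 2.26 ± 0.353, 1.03 ± 0.958 and 1.26 ± 0.505. Its log2 fold change of Indirubin against Control was -0.84, and -0.31 with Indirubin-1 alone. Wars1, the tryptophanyl-tRNA synthetase listed as Wars, had 9.29 ± 4.16, 5.30 ± 1.92 and 4.36 ± 0.633 normalized CPM in Control, DSS and Indirubin mice, and its log2 fold change of Indirubin against Control was -1.07. Tph1, which starts serotonin synthesis, and Il4i1, which makes indole AhR ligands, had 0 counts in all libraries. Tph2 had 0 counts outside Indirubin-1 and Indirubin-3, with 10 and 8.

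Of the side and end steps of the route, Aox3 stood out. It is an aldehyde oxidase, a family that oxidizes methylated nicotinamide, the product of Nnmt. It had 42.4, 33.5 and 42.6 normalized CPM in Control, 18.97, 26.8 and 13.2 in DSS and 15.6, 2.54 and 1.38 in Indirubin mice. All DSS and Indirubin mice lay below all Control mice, and Indirubin-2 and Indirubin-3 were the lowest. The log2 fold change was -0.97 for DSS against Control (standard error 0.36, adjusted p = 0.460), -1.63 for Indirubin against DSS (standard error 0.74, adjusted p = 0.647) and -2.65 for Indirubin against Control (standard error 0.72, adjusted p = 0.136, all from edgeR). With Indirubin-1 alone the last 2 were -0.32 and -1.35. Its paralog Aox1 had 38, 19 and 17 counts in Control, 40, 0 and 34 in DSS and 17, 15 and 0 in Indirubin mice. Dhtkd1, of the glutarate branch, had 3, 7 and 21 counts in Control, none in DSS and 2, 5 and 4 in Indirubin mice and did not pass the filter for any comparison. Kyat3, a kynurenine aminotransferase, overlapped in all comparisons.

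In NAD synthesis and use, Nampt, the rate-limiting enzyme of salvage, had 3.11, 11.45 and 12.4 normalized CPM in Control, 5.45, 8.86 and 7.59 in DSS and 5.69, 17.8 and 28.6 in Indirubin mice. Indirubin-2 and Indirubin-3 were the highest and Indirubin-1 lay among the DSS mice. Its log2 fold change of Indirubin against DSS was 1.26 (standard error 0.55, adjusted p = 0.628 from edgeR), and -0.35 with Indirubin-1 alone. Cd38, an NAD glycohydrolase of immune cells, had 3.20, 4.25 and 4.39 in DSS and 6.06, 11.1 and 13.6 in Indirubin mice, without overlap, and its log2 fold change was 1.38 (standard error 0.50, adjusted p = 0.519 from edgeR), and 0.62 with Indirubin-1 alone. The macrophage and neutrophil marker sums given above were also highest in Indirubin-2 and Indirubin-3, and their part in the Cd38 values was not tested. Nadsyn1, the last step to NAD from the acid form, had 7, 21 and 18 counts in Control, 8, 0 and 4 in DSS and 0, 11 and 8 in Indirubin mice, and Control lay above both groups in normalized CPM. Nadk2, the mitochondrial NAD kinase, had a log2 fold change of -0.78 for Indirubin against Control without overlap, and -0.30 with Indirubin-1 alone. Parp14, an ADP-ribosyltransferase, had -1.33 for DSS against Control without overlap.

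Of the methyl donor cycle, which supplies Nnmt, Bhmt, which remethylates homocysteine, had 37.1, 156 and 108 normalized CPM in DSS and 184, 291 and 308 in Indirubin mice, without overlap. Ahcy, which hydrolyses S-adenosylhomocysteine, had 88.9, 115 and 114 in DSS and 153, 298 and 168 in Indirubin mice, also without overlap. Their log2 fold changes were 1.38 (standard error 0.53) and 0.96 (standard error 0.42), with adjusted p of 0.538 and 0.628 from edgeR, and 0.88 and 0.54 with Indirubin-1 alone. In Control mice Bhmt was at 164 to 181 and Ahcy at 153 to 179, above all DSS mice. Pemt, which methylates phosphatidylethanolamine, was at 17.2 ± 4.82 with indirubin and 35.2 ± 20.4 in DSS mice, and overlapped. Mat1a, which makes S-adenosylmethionine, was at 151 ± 20.3 in Control and 309 ± 149 in Indirubin mice, with overlap. Its log2 fold change of 1.07 turned to -0.14 with Indirubin-1 alone. Gnmt, a glycine methyltransferase, was at 157 ± 7.79 in Control and 104 ± 34.7 in Indirubin mice, without overlap.

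Enzymes that degrade other amino acids were the nearest group for comparison. Of 22 listed, 21 passed the filter for DSS against Control, with 0 higher and 6 lower without overlap (7.1% and 8.54% of all genes) and a median log2 fold change of -0.51. All 22 passed for both comparisons with indirubin. Against Control 1 was higher and 11 lower (12.2% and 9.32% of all genes), with a median of -0.73. Against DSS 1 was higher and 5 lower (10.5% and 5.92%), with a median of -0.37. Prodh2, a hydroxyproline dehydrogenase, was the gene with an adjusted p under 0.05: it fell by 2.66 on the log2 scale against Control (standard error 0.46, adjusted p = 0.0413 from edgeR), at 26.7 ± 8.33 against 4.17 ± 1.78 normalized CPM. Leaving out any library but Indirubin-1 ended this call, with adjusted p of 0.148 to 0.328 from edgeR and log2 fold changes of -2.96 to -2.33. With Indirubin-1 alone it was -2.49. Total library size alone also ended it (-1.64, adjusted p = 0.102, edgeR), as it did on nuclear genes only (-2.57, adjusted p = 0.0687, edgeR). Prodh, a proline dehydrogenase, had 12.1 ± 3.87, 3.34 ± 1.44 and 4.79 ± 0.694 in Control, DSS and Indirubin mice. Ftcd and Uroc1, of histidine breakdown, were at 36.9 ± 15.9 and 30.6 ± 4.498 in Control and 13.3 ± 1.82 and 12.8 ± 5.17 in Indirubin mice. Tat, a tyrosine aminotransferase known, like Tdo2, to be induced by glucocorticoids, was named after its values were seen. Tat had 114, 110 and 100 normalized CPM in Control, 68.3, 71.6 and 175 in DSS and 55.5, 276 and 266 in Indirubin mice. Indirubin-2 and Indirubin-3 were the highest libraries for Tat and Indirubin-1 was the lowest. The part of glucocorticoids in the Tat and Tdo2 values was not tested.

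Of the 11 genes of AhR and its targets 5 passed the filter for Indirubin against DSS, 2 of them higher and 0 lower without overlap (10.5% and 5.92% of all genes). Cyp1a2, a liver monooxygenase, had 9.48, 20.9 and 35.3 normalized CPM in DSS and 86.5, 51.4 and 65.9 in Indirubin mice, without overlap and with Indirubin-1 the highest. Its log2 fold change was 1.63 (standard error 0.49, adjusted p = 0.436 from edgeR), and 1.98 with Indirubin-1 alone. The other gene counted as higher was Cyp1b1, with 0, 0 and 4 counts in DSS and 10, 21 and 31 in Indirubin mice. It passed the filter only through the Indirubin libraries, which fixed its direction, so it adds nothing to the count. Cyp1a1, the hydrocarbon-inducible member of the family, was named after its values were seen. It had 0 counts in Indirubin-1 and in all Control and DSS mice, and 262 and 417 in Indirubin-2 and Indirubin-3. Indirubin-1 was thus the lowest of its group for Cyp1a1 and the highest for Cyp1a2. Indirubin-2 and Indirubin-3 are also the libraries with the highest acinar, neutrophil and erythroid sums, whose part in the Cyp1a1 values was not tested.

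**Figure D4:**
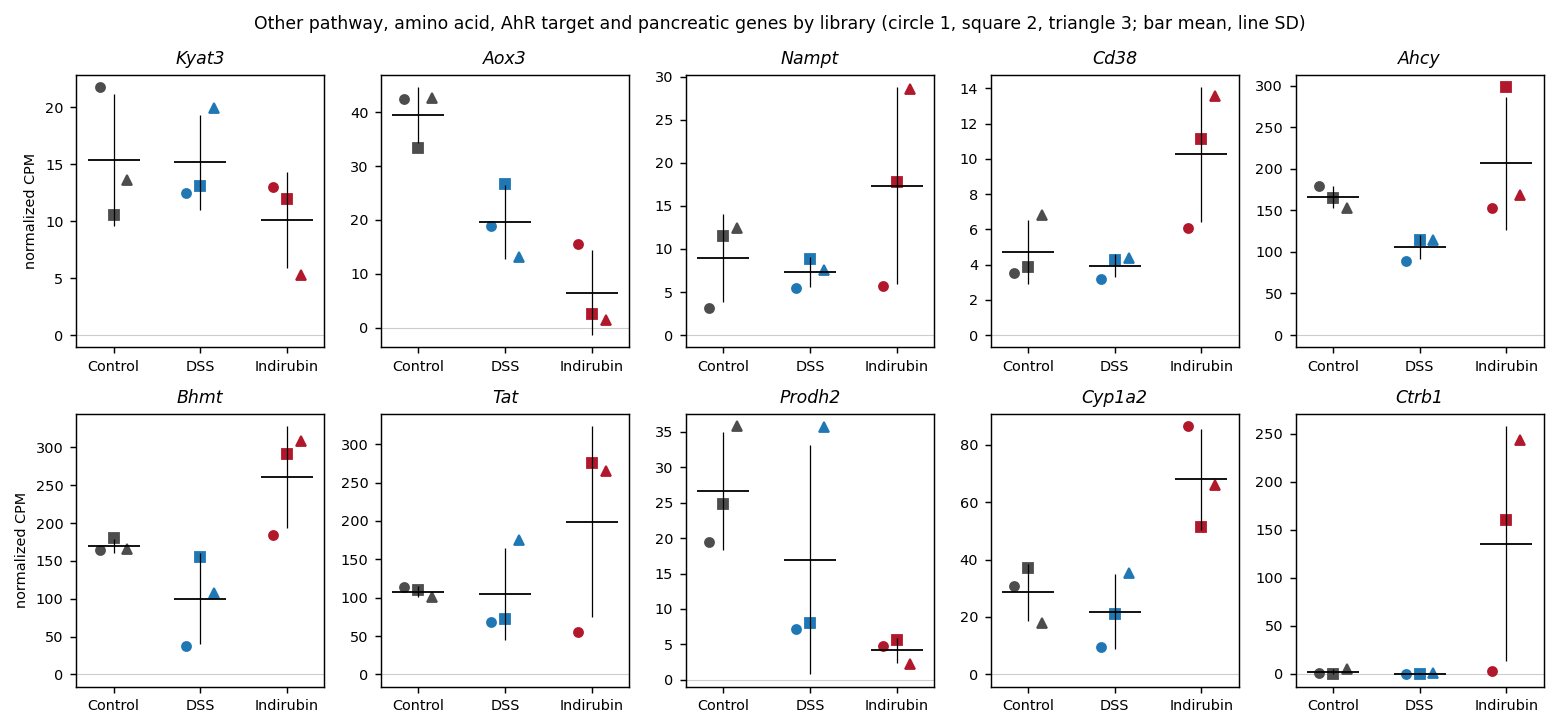
Normalized CPM (vertical axis, linear) by group and library of 6 further pathway genes, of Tat and Prodh2, of the AhR target Cyp1a2 and of the acinar marker Ctrb1, with the bar at the mean and the line 1 SD to each side. Indirubin-2 and Indirubin-3 are the highest for Nampt, Cd38, Tat, Bhmt and Ctrb1 and the lowest for Aox3, while Indirubin-1 is the highest for Cyp1a2.

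The genes most like each member over the 9 libraries were found among 2530 others with a mean of at least 50 counts, by the root mean square distance of log2 normalized CPM centred on each gene's mean. For Tdo2 they were Hmox1 (0.20), which degrades heme, Plac8 (0.26) and C1qb (0.30), a complement chain made by macrophages, where the median distance over all genes was 0.92. For Haao they were C8b (0.15) and Hc (0.18), both complement components made by hepatocytes, and Pgrmc1 (0.20), with a median of 0.85. For Kmo they were Gatd3a (0.13), Dcaf11 and Aldh2 (both 0.18), with a median of 0.66. For Qprt the nearest was Kyat3 (0.19), another enzyme of the kynurenine route, before Wdtc1 (0.28) and Asgr2 (0.32), with a median of 0.80. For Kynu they were Cyp2e1 (0.29), Hpgd (0.30) and Asgr2 (0.37), and for Nnmt Cyp3a13 (0.31), Trf (0.35) and Itih3 (0.36), with medians of 1.00 and 0.96. The 9 libraries share depth and group, so this likeness is a description.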

How the data were processed

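Liver RNA of 9 mice (3 Control, 3 DSS, 3 Indirubin) was sequenced by the authors on a DNBSEQ instrument from libraries of 400 ng of RNA and aligned to the mouse genome. The submitters' processing notes name GRCm39, and the aligner, counting program, annotation and strandedness are not given in the sources used here. The authors deposited whole-number counts per gene, without normalization, and FPKM values that rest on a library size of 4192007 to 13153689, not on the total count. Fold changes, group means and p-values of the authors' own comparisons, and 3 gene lists without values per mouse, were not used. The authors' FPKM served to compare levels between genes.

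Counts were tested with edgeR 4.0.16 (R 4.3.3) by TMM, filterByExpr (minimum count 10, minimum total 15), glmQLFit and glmQLFTest on the 6 libraries of each comparison, with Benjamini-Hochberg adjustment over all genes tested. The standard error is the log2 fold change divided by the square root of F. DESeq2 1.42.0 was an alternative. Log2 CPM for the likeness used a prior count of 2. The fits were tested on simulated data. Depth limits precision at nuclear totals of 569044 to 2132208, and floors cover counting error only. Genes named outside the members were those of the fixed lists with an unadjusted p under 0.05 or without overlap in a comparison, Ido1 and Nampt, up to 4 of the amino acid and AhR lists, and the 3 genes most like each member with a mean of at least 50 counts. Tat, Ctrb1, Cyp1a1, Tph1, Tph2, Il4i1 and the ratio of Tdo2 to Haao were named after their values were seen. The members and lists were chosen with earlier results of these data known. With 3 mice against 3, an exact two-sided permutation test cannot go below 0.1, so none is given. Other scalings, filters, fits and left-out libraries were tried. Figures were drawn with matplotlib 3.10.9.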

Additional observations from a re-analysis of the deposited data

How the results depend on the processing

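Of 440 alternative values of the member log2 fold changes, 410 kept their direction and their side of the adjusted p threshold. Called at an adjusted p under 0.05 were 0 genes for Indirubin against DSS, 53 for DSS against Control and 19 for Indirubin against Control. With total library size alone these were 2, 19 and 266, with the DESeq2 Wald test 80, 143 and 316, without a filter 156, 125 and 379, and with all 9 libraries in one fit 4, 11 and 56. Leaving out 1 library gave 0 to 134, 12 to 64 and 1 to 465, with 134 and 465 without Indirubin-1, and both 12 and 1 without Control-2. Mice with the same number in their title did not deviate together (correlations -0.02 to 0.02 over 9713 genes). With 3 mice per group this cannot exclude a pairing or a shared batch, and other pairings were not tried. Adding a block for that number gave 3, 30 and 49. Members called were 0 in each comparison. With DESeq2 there was 1 for Indirubin against DSS, and without Indirubin-1 there was 1 against DSS and 1 against Control. At an unadjusted p under 0.05 there were 2 members in each comparison. With total library size alone there was 1 for Indirubin against DSS (Tdo2, without Haao) and 1 for DSS against Control (Nnmt, without Tdo2), and for Indirubin against Control Tdo2 and Nnmt, both higher, stood in place of Kmo and Haao. With 1 library left out there were 1 to 3 for Indirubin against DSS, 1 to 2 for DSS against Control and 1 to 5 for Indirubin against Control.

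Directions reversed as follows, and the cause was not tested beyond the shift of all genes under library size. With total library size alone, Kmo (0.39) and Haao (0.52) turned positive for DSS against Control, and Afmid (0.62), Kmo (0.17), Kynu (0.36) and Qprt (0.67) for Indirubin against Control. With Indirubin-1 alone, Kynu (0.31), Acmsd (0.63) and Aadat (-0.38) turned against DSS, and Tdo2 (-0.11), Kynu (0.51) and Aadat (-0.15) against Control. Without a filter Aadat was -0.043 for Indirubin against DSS. With 1 library left out, the log2 fold change of Indirubin against DSS ranged from -0.18 to 0.38 for Aadat and from -0.85 to 0.12 for Nnmt. For DSS against Control it ranged from -0.059 to 0.53 for Qprt, from -0.11 to 0.64 for Aadat and from -0.053 to 0.54 for Kynu. For Indirubin against Control it ranged from -0.042 to 0.72 for Aadat, from -0.51 to 0.56 for Ido2, from -1.30 to 0.066 for Kynu and from -0.80 to 0.0037 for Qprt. Afmid, Acmsd, Ido2 and Aadat had at most 74 counts in a library, which limits what could be detected for them.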
